A study of Mus musculus with 23 samples.

Results

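The 14 T-cell acute lymphoblastic leukemias (T-ALL) that grew from transplanted wild-type (WT) thymus were divided by their level of Cd8 RNA, and the 2 groups were compared across all other genes. Each library was given a Cd8 score, the mean of its log2 values for Cd8a and Cd8b1, and the 7 libraries with the highest score (Cd8-high) were set against the 7 with the lowest (Cd8-low). These 14 libraries are part of a series of 23, which also holds 6 normal thymus libraries and 3 T-ALL from Notch3 knockout (KO) thymus. These are not groups of the study. They were defined by a measured value, so that each p-value below refers to association with that value and not to a treatment.

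All 14 leukemias arose by one route. A thymus lobe from a newborn donor of the CD45.1-marked B6.Ly5.1 strain, wild type for Notch3, was placed under the kidney capsule of a Rag2-/-Il2rg-/- host on the BALB/c background, and RNA was taken from the leukemic spleen. The KO leukemias were made the same way from donors without Notch3, and the thymus libraries came from C57BL/6 mice. Each leukemia is 1 mouse and 1 library, named here by its number in the labels. The spleen was not sorted, so each library holds RNA of host cells beside that of the leukemia, and a lower proportion of a cell type cannot be told apart from less RNA per cell. The host cannot make its own mature lymphocytes, because Rag2 is needed to rearrange antigen receptor genes and Il2rg is the shared cytokine receptor chain.

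CD8 is a coreceptor of the T-cell receptor, made of an alpha chain (Cd8a) and a beta chain (Cd8b1) encoded by neighboring genes. Thymocytes begin as double-negative (DN) cells without CD4 or CD8, pass through a CD8-bearing immature stage, become double-positive (DP) cells that rearrange the T-cell receptor alpha locus, and are then selected into CD4 or CD8 lineages. T-ALL cells are arrested along this path, and the level of CD8 is one of the marks by which the stage of arrest is judged.

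Values are log2(scaled RPKM + 1), where RPKM is a read density, the reads of a gene divided by its transcript length and by the library's mapped reads. A difference is Cd8-high minus Cd8-low on that scale, which understates the change of genes with low values. It is given with its standard error (SE). A slope is the change in a gene per 1 log2 unit of Cd8 score over the 14 libraries. Both were tested with limma, and adjusted p-values are Benjamini-Hochberg values over the 11474 genes that reached a scaled RPKM of 1 in at least 3 of the 14 libraries. A gene is called at an adjusted p under 0.05. Counts at an unadjusted p under 0.05 are given as descriptions.

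The Cd8 score ran from 4.59 to 7.60 in the 14 leukemias. In Cd8-high, libraries 128 and 4 stood at 7.60, followed by 48 at 7.10, 36 at 7.08, 202 at 7.04, 7 at 7.02 and 14 at 6.89. In Cd8-low, library 120 stood at 6.78, followed by 126 at 6.37, 111 at 6.26, 108 at 6.24, 5 at 5.87, 110 at 4.75 and 3 at 4.59. The division therefore fell in a continuous series, between library 14 at 6.89 and library 120 at 6.78, while libraries 3 and 110 stood apart below the rest. Cd8a alone or Cd8b1 alone gave the same groups. The 6 thymus libraries had scores of 9.20 to 9.77, above every leukemia, and the KO leukemias had 5.51, 7.89 and 5.24.

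**Figure D1:**
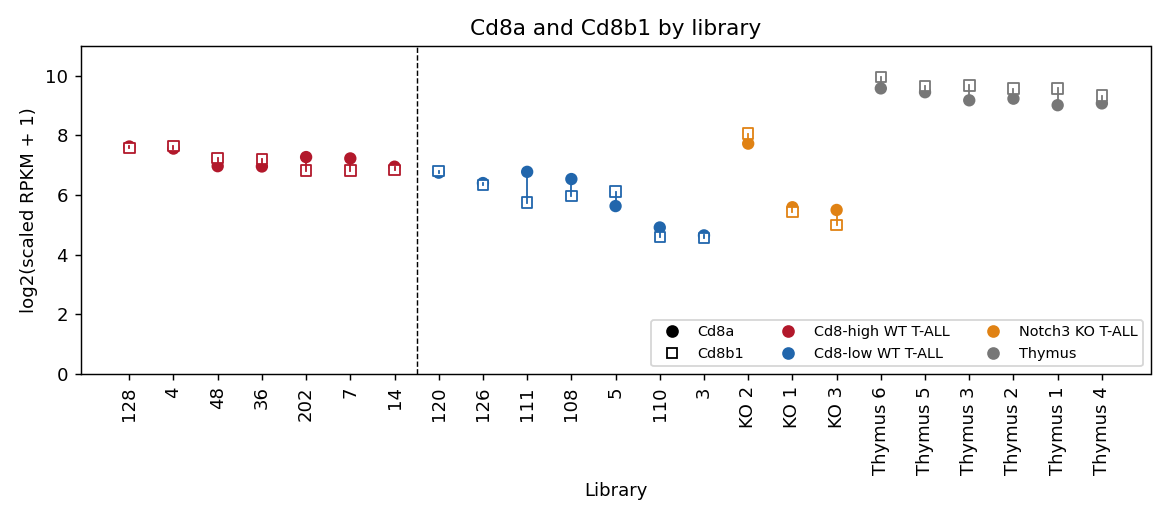
Cd8a (filled circles) and Cd8b1 (open squares) in log2(scaled RPKM + 1) for each of the 23 libraries, with the dashed line between the groups. The 14 WT T-ALL form a graded series, with libraries 110 and 3 lowest and all thymus libraries above them.

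Both chains followed each other. Cd8a had a lowest, median and highest value of 6.95, 7.22 and 7.63 in Cd8-high and of 4.64, 6.40 and 6.77 in Cd8-low. Cd8b1 had 6.81, 7.20 and 7.64 against 4.55, 5.96 and 6.81. The groups do not overlap in these 2 genes because the rule used them, and no test is given. Cd8b1 was furthest below Cd8a in library 111, by 1.04, followed by library 108, by 0.58, and furthest above it in library 5, by 0.49. In the thymus Cd8b1 was above Cd8a in all 6 libraries, by 0.21 to 0.56.

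The sequence before the start of Cd8a is shown because the gene set the ranking, that of Rag1 because it was among the DP genes that differed most in level, and that of Edaradd because it was the 1 gene called. Each is the 200 bases before a RefSeq start in GRCm38.p6, read 5′ to 3′ on the gene's strand. Cd8a lies on chromosome 6, plus strand, with the stretch at chr6:71373227-71373426. Rag1 lies on chromosome 2, minus strand, at chr2:101649533-101649732. Edaradd lies on chromosome 13, minus strand, at chr13:12520451-12520650. The gene as listed reaches to 12520535, so part of this stretch lies inside it. Capitals mark matches, on either strand, to TGTGGT (letters bound by RUNX factors), CAGNTG (an E-box, bound by E proteins such as Tcf12), AGATAA (letters bound by factors such as Gata3) and AGGAAGT (bound by the ETS family).
Cd8a: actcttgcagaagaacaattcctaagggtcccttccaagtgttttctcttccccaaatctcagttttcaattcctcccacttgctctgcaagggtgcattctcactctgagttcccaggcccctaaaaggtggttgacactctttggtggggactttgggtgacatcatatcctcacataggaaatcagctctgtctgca
Rag1: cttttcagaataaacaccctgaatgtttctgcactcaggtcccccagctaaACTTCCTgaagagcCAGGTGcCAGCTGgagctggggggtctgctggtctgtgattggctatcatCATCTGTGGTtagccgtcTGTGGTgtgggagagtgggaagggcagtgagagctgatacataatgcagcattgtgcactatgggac
Edaradd: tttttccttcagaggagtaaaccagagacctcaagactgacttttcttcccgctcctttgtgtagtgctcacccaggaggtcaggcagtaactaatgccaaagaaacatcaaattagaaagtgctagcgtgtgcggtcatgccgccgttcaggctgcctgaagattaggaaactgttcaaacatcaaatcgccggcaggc
The Rag1 stretch held 2 TGTGGT matches, 3 E-box matches and 1 ETS match. The first TGTGGT overlaps an E-box by its leading letters. The Cd8a and Edaradd stretches held none of these letters. Among all 32851 promoter stretches of this length, 11.2% held TGTGGT, 37.9% CAGNTG, 7.80% AGATAA and 6.34% AGGAAGT. A match is a description of letters and not of binding.

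No gene was called between the groups, and 1 gene was called along the Cd8 score. Between the groups the smallest adjusted p was 0.139, and 1180 genes (10.3% of those tested) were under an unadjusted p of 0.05. Of these, 772 (6.73%) were higher in Cd8-high and 408 (3.56%) lower, a split that was 640 and 497 after quantile normalization and 467 and 402 with 6 libraries against 6. Along the score, 1 gene was called (0.00872%), and 846 genes (7.37%) were under an unadjusted p of 0.05, 337 (2.94%) with a rising and 509 (4.44%) with a falling slope. That excess of falling slopes was absent with a filter at a scaled RPKM of 5 (275 rising and 268 falling), with the mean of the neutrophil markers in the fit (216 and 213) and without the 2 libraries of lowest score (212 and 172). Both counts used the same 14 libraries. They shared 336 genes, 28.5% of the first list and 39.7% of the second. Complete separation of the groups was rare, with 15 genes (0.131%) higher in every Cd8-high library and 4 (0.0349%) lower. The median difference over all genes tested was 0.04.

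Edaradd, which encodes the adaptor protein of the ectodysplasin receptor, was the gene called along the score. Its lowest, median and highest values were 3.31, 3.77 and 4.02 in Cd8-high and 1.64, 2.84 and 3.31 in Cd8-low. The groups met at 1 point, with library 14 at 3.31 beside library 120 at 3.31, and libraries 3 (1.64) and 110 (2.05) were lowest. The slope was 0.67 (SE 0.10), with a limma adjusted p of 0.0276. Pearson's r with the score was 0.91 and Spearman's rho 0.85, with unadjusted permutation p of 0.0001 and 0.00022. Edaradd was picked from all genes for this slope, so r and rho describe it and do not add evidence. Without libraries 3 and 110 r was 0.71, the slope 0.52 (SE 0.18) and the limma adjusted p 0.996, so the call did not hold without them. With 1 library left out at a time the slope stayed between 0.59 and 0.72, with limma adjusted p of 0.0117 to 0.303, and the call was lost in 9 of 14 cases. The thymus libraries, with much more Cd8, had 2.50 to 3.31 of Edaradd, at or below the Cd8-high leukemias.

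The genes with the smallest p between the groups did not pass the test. Mcoln3, an endolysosomal cation channel, had 1.57, 2.63 and 3.62 (lowest, median, highest) in Cd8-high and 0.14, 0.79 and 1.55 in Cd8-low. The groups did not overlap, by the narrow margin between library 48 and library 5. The difference was 1.90 (SE 0.31), with a limma adjusted p of 0.139. The thymus libraries, at 2.30 to 3.07, lay within the range of Cd8-high.
Fbln2, a fibulin of the extracellular matrix, had 1.24, 2.98 and 4.59 against 0.07, 0.25 and 1.92. It differed by 2.54 (SE 0.47, limma adjusted p 0.185), with 6 of 7 Cd8-high libraries above every Cd8-low library. Zmat5, a protein of the minor spliceosome, had 4.07, 4.27 and 4.87 against 3.33, 3.62 and 3.76, with no overlap and a difference of 0.72 (SE 0.14). Mettl6, a tRNA methyltransferase, differed by 1.09 (SE 0.21) and Pik3r3, a regulatory subunit of PI 3-kinase, by 1.26 (SE 0.26), each with 6 of 7 Cd8-high libraries above the Cd8-low range.

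In the other direction, Plekha7, a protein of adherens junctions, had 0.40, 1.00 and 2.79 in Cd8-high and 2.52, 2.67 and 3.25 in Cd8-low. Library 128 was the 1 Cd8-high library inside the Cd8-low range. The difference was -1.63 (SE 0.30, limma adjusted p 0.185). Ckb, the brain form of creatine kinase, had 1.82, 3.00 and 3.85 against 3.54, 4.37 and 5.70, a difference of -1.65 (SE 0.38, limma adjusted p 0.304). Iqgap3, a scaffold protein of proliferating cells, differed by -0.91 (SE 0.20), Tm7sf3 by -0.74 (SE 0.16) and Ttc7 by -0.71 (SE 0.16). In all of these, 6 of 7 Cd8-high libraries lay below every Cd8-low library.

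**Figure D2:**
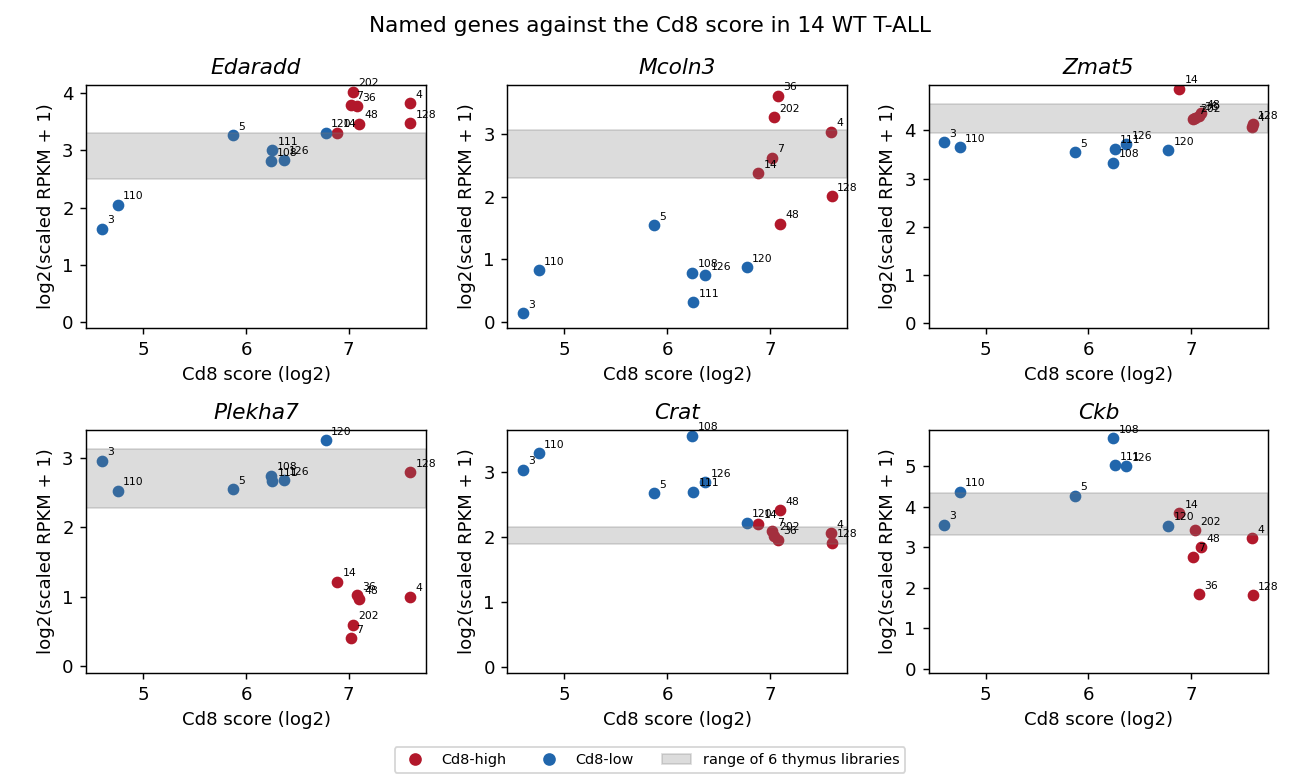
Log2(scaled RPKM + 1) of Edaradd, Mcoln3, Zmat5, Plekha7, Crat and Ckb against the Cd8 score in 14 WT T-ALL, each point 1 library, with the range of the 6 thymus libraries shaded. Edaradd had r of 0.91 over the 14 libraries, with libraries 3 and 110 lowest in both measures, while Mcoln3 and Zmat5 separate the groups without overlap.

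The genes whose pattern over the 14 libraries was most like the Cd8 score were ranked by Pearson's r, as a description. Among the 5 highest were Edaradd (r 0.91), Sesn1 (0.79), a stress-induced sestrin, Strip2 (0.77) and Rcbtb2 (0.76). Without libraries 3 and 110 these r were 0.71, 0.71, 0.67 and 0.58. The most opposite patterns were those of Rab24 (-0.83), a Rab protein linked to autophagy, Rogdi (-0.81), Bri3 (-0.81), Crat (-0.79), the carnitine acetyltransferase, and Tbc1d8 (-0.79). Crat had 1.91, 2.06 and 2.41 in Cd8-high against 2.22, 2.85 and 3.56 in Cd8-low, and its r without libraries 3 and 110 was -0.77. The same r was -0.72 for Rogdi, -0.68 for Rab24 and Tbc1d8, and -0.47 for Bri3.
Among rising slopes, Edaradd was followed by smallest p by Nsg2 (0.82, SE 0.19), Txk (0.80, SE 0.19), a Tec-family kinase of T cells, Rcbtb2 (0.46, SE 0.11) and Themis (0.60, SE 0.15). The falling slopes with the smallest p were those of Rogdi (-0.65, SE 0.13), Rab24 (-0.43, SE 0.09), Tbc1d8 (-0.67, SE 0.15), Ifitm2 (-0.85, SE 0.19), an interferon-induced membrane protein, and Crat (-0.45, SE 0.11). Apart from Edaradd, none of these slopes passed the test.

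The program of DP thymocytes showed the most members with higher levels in Cd8-high. Of 17 listed genes, all tested, 15 were higher in Cd8-high and the median difference was 0.55, against 0.04 over all genes. At an unadjusted p under 0.05, 7 were higher and 0 lower, where 6.73% of all genes were higher. None passed the adjusted test. Among these 7 were Rag1, Cd1d1, Themis, Ccr9, Bcl2l1 and Mns1.

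Rag1, the recombinase of antigen receptor genes, had 6.46, 7.61 and 7.80 (lowest, median, highest) in Cd8-high and 3.60, 5.38 and 7.84 in Cd8-low. The Cd8-high libraries lay close together, while the Cd8-low libraries spread over both ends, with library 5 above every Cd8-high library at 7.84 and libraries 110 (3.60) and 120 (3.64) lowest. The difference was 1.86 (SE 0.59, unadjusted p 0.00642, limma adjusted p 0.380). The slope of Rag1 was 1.02 (SE 0.33), with r of 0.63, or 0.26 without libraries 3 and 110. Rag2, its partner, had 1.63, 5.28 and 5.98 against 1.00, 3.58 and 5.91, a difference of 1.53 (SE 0.76) that did not reach an unadjusted p of 0.05. Library 7 stood apart in Cd8-high, with Rag1 of 6.46 but Rag2 of 1.63. All thymus libraries were higher in Rag1, at 9.75 to 10.7.

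Bcl2l1, a survival gene of the Bcl-2 family, had 3.81, 4.39 and 4.94 against 2.59, 3.81 and 4.43, a difference of 0.66 (SE 0.26). Cd1d1, which presents lipid to natural killer T cells, had 3.07, 3.77 and 4.35 against 2.66, 2.90 and 3.34, and 5 of 7 libraries of each group lay outside the other group's range. Its difference was 0.71 (SE 0.20, limma adjusted p 0.323).

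Themis, a signaling protein of thymocyte selection, had 5.42, 6.50 and 7.32 against 4.77, 5.79 and 6.48, a difference of 0.89 (SE 0.31). Its slope was 0.60 (SE 0.15), with r of 0.72, and r of 0.34 without libraries 3 and 110. Ccr9, a chemokine receptor of DP thymocytes and gut-homing T cells, had 4.11, 4.53 and 7.06 against 0.80, 2.37 and 5.18. Its difference of 2.24 (SE 0.70, limma adjusted p 0.379) was the widest of the list, and libraries 7 (7.06) and 202 (5.92) led it. Along the score the slope of Ccr9 was 0.82 (SE 0.46, limma unadjusted p 0.0941), with r of 0.42. Mns1 differed by 0.55 (SE 0.24), and its slope was 0.16 (SE 0.15, limma unadjusted p 0.280), with r of 0.29.

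Other DP genes varied without separating the groups. Cd4, the other coreceptor, had 2.90, 4.68 and 6.30 in Cd8-high against 1.90, 3.97 and 5.40 in Cd8-low, and its difference of 0.77 (SE 0.57) lay within the spread, while its slope was 0.70 (SE 0.28, unadjusted p 0.0246) and its r 0.55, or 0.34 without libraries 3 and 110. All leukemias were below the thymus range of 8.31 to 8.86. Dntt, the template-free polymerase of receptor rearrangement, was high in both groups, with 7.55, 8.01 and 8.82 against 6.68, 7.73 and 8.42. Its slope was 0.35 (SE 0.14, unadjusted p 0.0217), with r of 0.57, or 0.29 without libraries 3 and 110. Plxnd1 and Cd24a were the 2 members with lower means in Cd8-high.

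**Figure D3:**
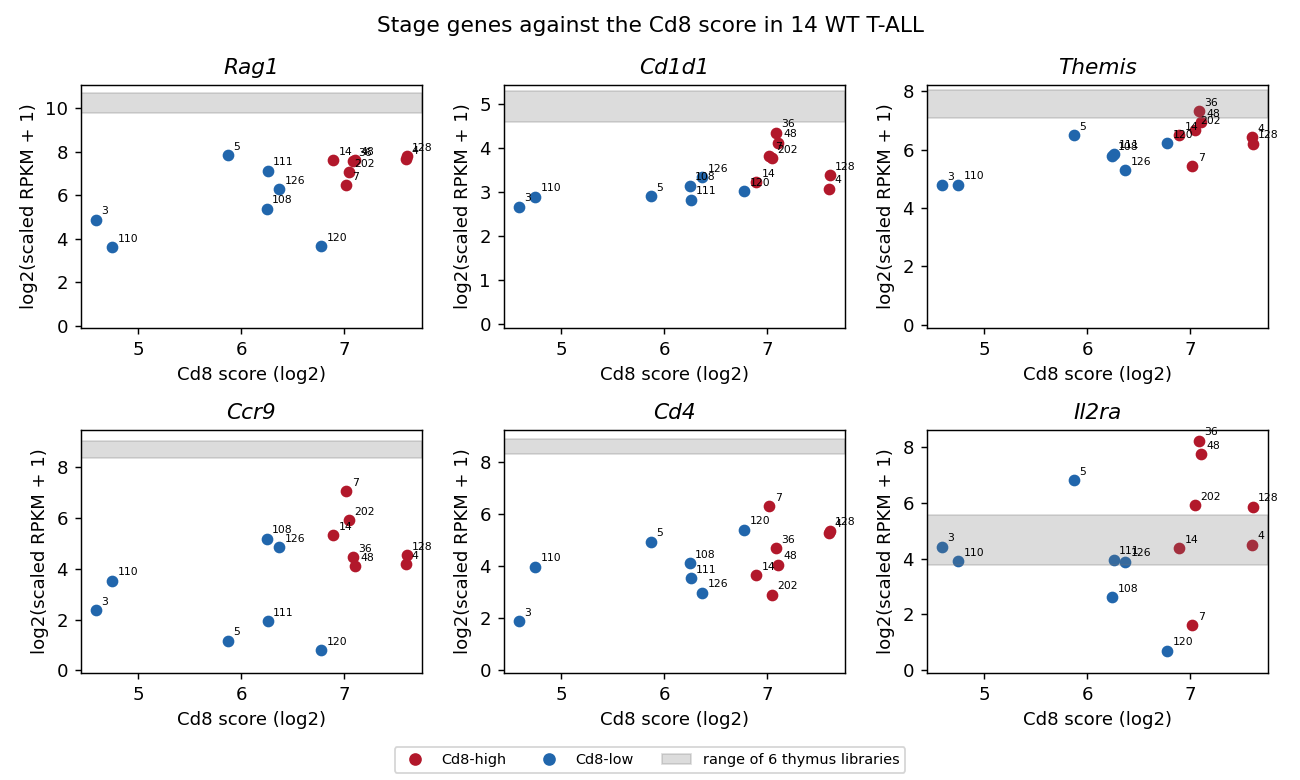
Log2(scaled RPKM + 1) of Rag1, Cd1d1, Themis, Ccr9, Cd4 and Il2ra against the Cd8 score in 14 WT T-ALL, each point 1 library and the 6 thymus libraries shaded. Library 120 lies low in Rag1, Ccr9 and Il2ra at a score of 6.78, while library 5 is high in Rag1 and Il2ra at a score of 5.87.

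The mean of the 17 DP genes was 5.49 to 5.88 in Cd8-high and 4.43 to 5.58 in Cd8-low, with library 5 the 1 Cd8-low library within the Cd8-high range. It was 7.22 to 7.58 in the thymus. Libraries 120 and 5 went against the ranking in opposite ways. Library 120, the nearest to the division, had the lowest Ccr9 (0.80), Ptcra (1.37) and Il2ra (0.71) of the 14 leukemias and a Rag1 of 3.64. Library 5 had the highest Rag1 (7.84) with Ptcra of 6.38 and Il2ra of 6.81. Along the score, 7 DP genes had a rising slope at an unadjusted p under 0.05, where 2.94% of all genes did. Without libraries 3 and 110 this count became 0, where 1.85% of all genes rose at that level, so it too rests on them. The count between the groups became 4, where 6.48% of all genes were higher.

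The KO leukemias, which the rule did not use, were set beside these values without a test. KO 2, with the highest Cd8 score of the 3 (7.89), also had the highest Rag1 (8.62, against 3.81 and 4.72) and Rag2 (5.56, against 1.08 and 2.36). Its DP mean was 6.29, against 5.06 in both others. Edaradd, the 1 gene called along the score, was 2.64 in KO 2, between 3.13 in KO 1 and 2.36 in KO 3, Themis was 5.75 against 5.63 and 5.03, and Ccr9 was highest in KO 1, at 7.36. The mean of the early progenitor genes was 2.26 in KO 2, between 2.18 in KO 1 and 2.61 in KO 3. Markers of other cells differed too, with a neutrophil mean of 3.01 in KO 2 against 7.16 and 7.32, and a hemoglobin share of 15.5% against 4.05% and 9.27%. Their part in these values was not tested. Of the 772 genes higher in Cd8-high, 39.1% were above both other KO libraries in KO 2, against 34.1% of all genes. A further 40% of the 772 were below both, against 45.1% of all genes. Of the 408 lower genes, 44.9% were below both, against 45.1% of all genes, and 28.9% were above both.

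Genes of early thymic progenitors leaned the other way. Of 15 listed genes, 12 were tested, 10 of these were lower in Cd8-high, and the median difference was -0.69. Flt3 and Cd34 were the 2 members with higher means in Cd8-high, with r of 0.40 and 0.15 with the score. Kit had r of -0.11. At an unadjusted p under 0.05, 2 were lower, Gfi1b and Bcl11a, where 3.56% of all genes were. Gfi1b, a repressor of blood progenitors and of the erythroid line, had 1.18, 1.94 and 3.35 in Cd8-high against 1.99, 3.19 and 4.13 in Cd8-low, a difference of -1.19 (SE 0.37, limma adjusted p 0.369). Bcl11a, a lymphoid progenitor factor, had 0.77, 1.62 and 2.67 against 1.95, 2.32 and 3.50, a difference of -0.99 (SE 0.33, limma adjusted p 0.388). In both, 5 of 7 Cd8-high libraries lay below every Cd8-low library. Their slopes were -0.40 (SE 0.25) for Gfi1b and -0.36 (SE 0.21) for Bcl11a, with limma unadjusted p of 0.125 and 0.109. Of 11 erythroid markers, 9 were lower in Cd8-high, with a median difference of -0.34, and 1, Epor, was so at an unadjusted p under 0.05. The share of hemoglobin genes in the summed scaled RPKM was 1.94% in both groups (SD 2.08 in Cd8-high and 1.59 in Cd8-low, n = 7 each). Klf1, the erythroid Krueppel-like factor, had 2.06, 3.06 and 4.78 in Cd8-high against 3.06, 4.55 and 5.48 in Cd8-low, a difference of -0.89 (SE 0.44, limma unadjusted p 0.0620). Libraries 108 and 120 were highest in both Klf1 and Gfi1b, and libraries 128 and 36 lowest. Epor, the erythropoietin receptor, had 1.54, 2.14 and 3.15 against 1.68, 3.53 and 4.16, a difference of -0.86 (SE 0.37, unadjusted p 0.0353). With the mean of all erythroid markers in the fit, the difference was -1.13 (SE 0.37) for Gfi1b and -0.96 (SE 0.34) for Bcl11a.
Along the score, 5 had a falling slope at an unadjusted p under 0.05, where 4.44% of all genes did. They were Hhex (-0.52, SE 0.20), Lyl1 (-0.54, SE 0.21), Spi1 (-0.76, SE 0.31), Erg (-0.50, SE 0.21) and Nfe2 (-0.67, SE 0.25). Spi1 and Nfe2 are also made by myeloid and erythroid cells. The count became 2 without library 110, where 2.16% of all genes fell at that level, and 0 with the mean of the neutrophil markers in the fit, where 1.86% did.

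Genes of the DN3 stage and of Notch signaling were spread widely within both groups. Of 12 listed genes, 10 were tested, all 10 had a higher mean in Cd8-high, the median difference was 0.52 and none reached an unadjusted p of 0.05. Il2ra (CD25), the DN surface marker, ran from 1.61 to 8.23 in Cd8-high and from 0.71 to 6.81 in Cd8-low, and its difference of 1.70 (SE 0.99) lay within that spread. Ptcra, the pre-T-cell receptor alpha chain, had 3.90, 6.04 and 6.53 against 1.37, 4.33 and 6.38, a difference of 1.24 (SE 0.68). Heyl, a Notch target, and Notch3 had slopes of 0.80 (SE 0.30) and 0.39 (SE 0.18) at unadjusted p of 0.0191 and 0.0429. Without libraries 3 and 110, the r of Heyl turned from 0.57 to -0.27 and that of Notch3 from 0.50 to 0.07.

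Regulators of the coreceptor genes showed no common direction, with 9 of 18 higher, 9 lower and a median difference of -0.01. The 2 at an unadjusted p under 0.05 were both higher, a share near the 10.3% of all genes at that level. Tcf12, the E protein HEB needed for DP cells, had 6.66, 7.16 and 7.58 in Cd8-high against 5.70, 6.25 and 7.07, a difference of 0.70 (SE 0.22, limma adjusted p 0.369). Myb, needed for DP survival, had 6.97, 7.57 and 7.69 against 6.76, 6.80 and 7.67, a difference of 0.44 (SE 0.18). Zbtb7b (ThPOK), the CD4-lineage factor that represses Cd8, had 0.69, 1.37 and 2.54 against 0.74, 2.05 and 4.58, and its lower mean did not reach an unadjusted p of 0.05.

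Genes of receptor signaling were mostly higher, by small differences. Of 12 genes of the CD3 complex and proximal receptor signaling, 10 were higher and the median difference was 0.13. Cd247, the zeta chain, had 6.49, 6.70 and 7.37 against 5.62, 6.26 and 7.04, a difference of 0.57 (SE 0.23), and was the 1 member at an unadjusted p under 0.05, a share near that of all genes. Lck, the kinase carried by CD4 and CD8, was 8.60 to 9.21 in Cd8-high and 7.62 to 9.10 in Cd8-low, a difference of 0.34 (SE 0.19). Along the score 3 of the 12 had a rising slope at an unadjusted p under 0.05, where 2.94% of all genes did. The slope was 0.36 (SE 0.12) for Cd247 and 0.24 (SE 0.10) for Lck, and none of the list passed the test. Of 14 genes of the response to receptor signals, 7 were higher and 7 lower, and the median difference was -0.08. Cd2, an adhesion receptor (0.79, SE 0.27), and Ikzf2, the factor Helios (0.71, SE 0.29), were the 2 at an unadjusted p under 0.05, where 10.3% of all genes were. Egr2, an early response gene, had 0.14, 0.47 and 1.52 against 0.19, 1.19 and 2.53, a difference of -0.74 (SE 0.38).

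Of 16 genes of maturation and exit from the thymus, 12 were higher and the median difference was 0.37. There were 4 at an unadjusted p under 0.05, all higher, where 6.73% of all genes were, among them Gimap6 (0.59, SE 0.20), Ms4a6b (0.84, SE 0.34) and Itgb7, the gut-homing integrin chain (1.03, SE 0.44). Along the score 1 of the 16 had a rising slope at that level, where 2.94% of all genes did, and the median slope was 0.06. Of 14 genes of cytotoxic CD8 cells, 9 were tested, none reached an unadjusted p of 0.05 between the groups, and the median difference was -0.46. Gzmb, granzyme B, stood at 0.12 to 1.72 in Cd8-high and 0.04 to 3.97 in Cd8-low.
Among 5 tested genes linked to gamma-delta T cells, 1 was higher and 1 lower at an unadjusted p under 0.05, where 6.73% and 3.56% of all genes were. Blk, a Src-family kinase, fell into separate levels in Cd8-high, with 1.51 to 3.92 in 5 libraries and 0.06 and 0.32 in libraries 36 and 48. All Cd8-low libraries had at most 0.84. The difference was 1.86 (SE 0.56, limma adjusted p 0.361). Sox13 was lower, with 1.43, 1.78 and 4.58 against 2.60, 3.45 and 5.13, a difference of -1.26 (SE 0.46).
Proliferation genes showed no common direction, with 7 of 14 higher, 7 lower, a median difference of -0.01 and no member at an unadjusted p under 0.05. Of 17 T-ALL oncogenes and tumor suppressors, 9 were tested, with a median difference of -0.16 and none at an unadjusted p under 0.05 between the groups. Tal1, a basic helix-loop-helix oncogene also made by erythroid cells, had 1.86, 2.67 and 3.53 against 1.88, 3.84 and 5.05, a difference of -0.84 (SE 0.40).

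**Figure D4:**
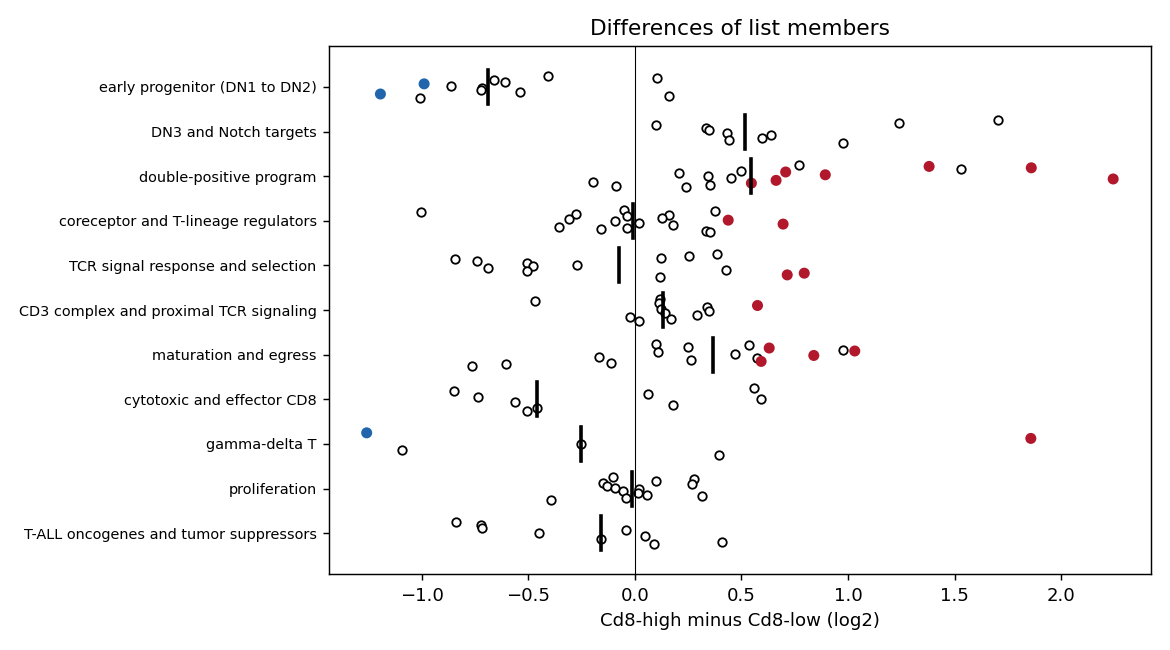
Cd8-high minus Cd8-low (log2) of each tested member of 11 gene lists, with the median of each list as a bar, and members at an unadjusted p under 0.05 filled (red higher, blue lower). The DP list has 7 filled members, all higher, and its median is 0.55, while that of the early progenitor list is -0.69.

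Likeness of each leukemia to the mean thymus, as Pearson's r across genes within that library (genes are not independent replicates), was 0.847 to 0.903 in Cd8-high and 0.805 to 0.899 in Cd8-low. Over the 14 libraries it had r of 0.67 with the Cd8 score (permutation p 0.00915, two-sided) and rho of 0.61 (permutation p 0.0238). Without libraries 3 and 110 r was 0.45, so the relation rests in part on them. This was the only whole-library measure tested.

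Markers of some other spleen cells varied with Cd8 as well. All 9 neutrophil markers had lower means in Cd8-high, with a median difference of -1.01, and none was at an unadjusted p under 0.05, though 7 of 9 had a falling slope at that level, where 4.44% of all genes did. Their mean was 4.71 to 7.27 in Cd8-high and 4.36 to 10.8 in Cd8-low, where library 110 was highest and library 5 lowest. Its r with the score was -0.50, and -0.10 without libraries 3 and 110. S100a8, an abundant neutrophil protein, had 8.18, 9.56 and 10.7 against 8.10, 10.7 and 14.7. All 8 tested macrophage markers were also lower, with a median difference of -0.56 and a mean of 1.87 to 4.92 against 2.60 to 5.10. Of 11 erythroid markers, 9 were lower, with a mean of 3.63 to 8.21 against 4.23 to 8.35. The macrophage and erythroid means had r of -0.37 and -0.03 with the score. The 7 pan-T-cell markers had a mean of 7.80 to 8.64 against 7.50 to 8.56. The mean of 5 B-cell markers was low, at 0.13 to 0.30 in Cd8-high and 0.20 to 0.61 in Cd8-low, with r of -0.69 with the score, and -0.77 without libraries 3 and 110. Of these, Ms4a1 was at most 0.0453 and Pax5 at most 0.0387. Cd79b, a chain of the B-cell receptor complex and the 1 member tested, had 0.38, 0.95 and 1.16 against 0.77, 1.56 and 2.71, highest in libraries 5 and 110. Its difference was -0.79 (SE 0.28) and its slope -0.42 (SE 0.16), at unadjusted p of 0.0116 and 0.0168. Of the markers of the dendritic cells that carry Cd8a, Xcr1 and Clec9a were at most 1.07 and 1.52. With the neutrophil mean in the fit, the count of DP genes at an unadjusted p under 0.05 was 6 between the groups and 5 along the score, where 5.79% of all genes were higher and 1.88% rose. Over all genes, 429 (3.74%) were at that level along the score with the neutrophil term, against 846 without it, 715 (6.23%) with the pan-T term and 967 (8.43%) with the erythroid term. The limma adjusted p of the Edaradd slope was 0.494, 0.0658 and 0.0309 in these 3 fits, so the call was lost with the first 2.

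**Figure D5:**
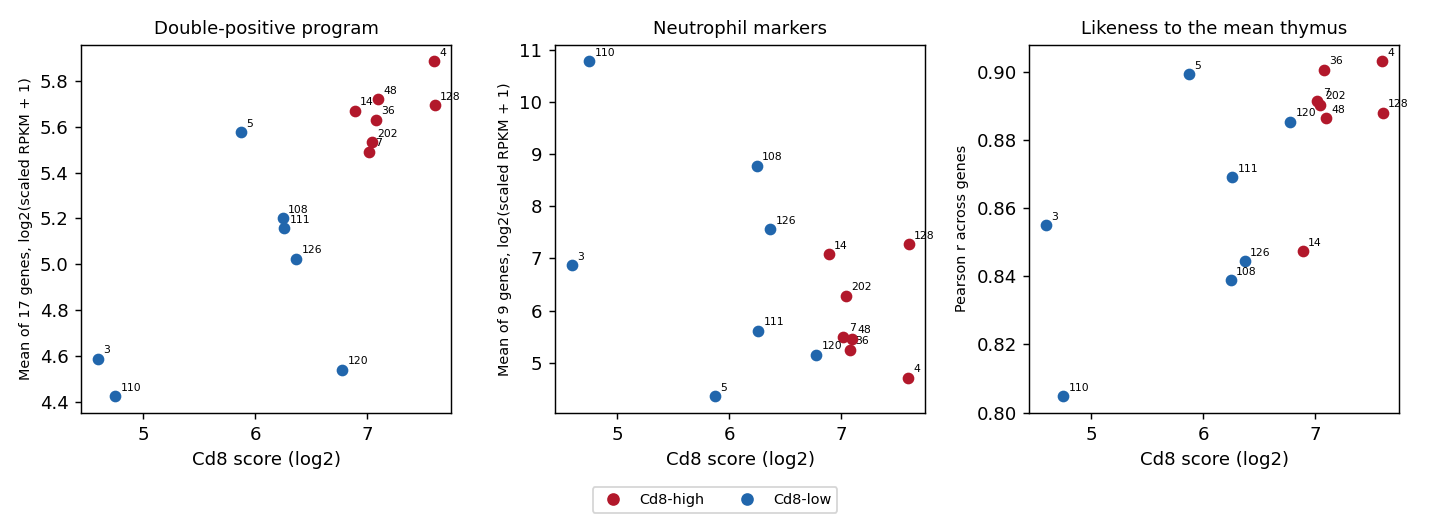
Mean of 17 DP genes, mean of 9 neutrophil markers and Pearson's r with the mean thymus (vertical axes) against the Cd8 score, for 14 WT T-ALL. The Cd8-high libraries lie at 5.49 to 5.88 in the DP mean, and library 110 is highest in neutrophil markers at 10.8 and lowest in likeness to thymus.

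Some libraries stood apart for reasons that the labels do not give. Libraries 3, 4, 5 and 7 differed from the other 10 in 5 genes, with 2 of them in each group. The genes were picked because thymus libraries 5 and 6 differed in them from thymus libraries 1 to 4. Thymus libraries 5 and 6 thus show the pattern by that choice, and the 3 KO libraries shared it. This pattern stands beside each comparison of the leukemias with KO or thymus values. Sco2, 1 of the 5 genes, was 2.30 or more in all libraries with the pattern and at most 1.00 in every other library. With the set of libraries 3, 4, 5 and 7 as a term 0 genes were called between the groups and 1 along the score. Among the other 10 libraries alone, 2105 genes were under an unadjusted p of 0.05 between the groups and none was called. In library 7 the 13 listed mitochondrial genes took 44.5% of the summed scaled RPKM, against 9.84% to 20.2% in the other 13 WT leukemias. Without library 7, 9 DP genes were higher at an unadjusted p under 0.05, and the share of all genes that were rose from 6.73% to 10.4%.

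The region around Cd8a was compared because its neighbors share the locus. Within 1 Mb on either side, 29 other genes were listed and 20 tested, 13 of which were higher in Cd8-high, with a median difference of 0.14. Of the 20, 4 were at an unadjusted p under 0.05, against 10.3% of all genes and 11.5% of those on chromosome 6. Kdm3a, a histone demethylase (0.49, SE 0.17), Ptcd3 (0.46, SE 0.15) and Mrpl35 (0.54, SE 0.25), which act in mitochondrial translation, were higher, and Rpia, an enzyme of the pentose phosphate pathway, was lower (-0.44, SE 0.20). Rmnd5a, the gene next to Cd8a, had 4.93, 5.73 and 6.54 against 4.84, 5.29 and 5.87, and its r with the score was 0.70. Over all 555 tested genes of chromosome 6 the median difference was 0.04.

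Chromosome 13, which holds Edaradd, had the widest median difference of any chromosome, at 0.22, and 73.6% of its 454 tested genes were higher in Cd8-high, against 55.2% of all genes. Of them 18.1% were at an unadjusted p under 0.05, against 10.3% of all genes. The median of its genes, relative to each gene's mean, was 0.27 in library 14 and -0.33 in library 126 and lay between -0.06 and 0.11 in the other 12. Without these 2 libraries, a choice made after seeing the data, the median difference was 0.15 and 69.6% of its genes were higher. A single gene's difference on this chromosome cannot be told apart from that of its neighbors in libraries 14 and 126. The Edaradd slope was 0.68 (SE 0.10) without library 14 and 0.67 (SE 0.09) without library 126. Chromosome 14, which holds Mettl6 and Rcbtb2, had the next widest median difference, at 0.13, with 67.1% of its genes higher. Its median by library was 0.369 in library 14, 0.339 in library 111 and 0.195 in library 7, and -0.189 to -0.003 in the rest. The same limit applies to single genes of chromosome 14 in libraries 14, 111 and 7.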

How the data were processed

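The authors made RNA libraries with a strand-marking mRNA kit, sequenced them as paired reads, mapped them with the OSA aligner in ArrayStudio to the mm10 transcriptome and deposited 1 table of log2 values of 24475 genes, log2(scaled RPKM + 1). The 75th percentile was near 10 scaled RPKM in every library (9.99 to 10.0). The methods give an approximate number of reads for all samples alike, but counts and the depth of each library were not used here, so that no counting interval is given. Of the genes, 24375 (99.6%) were matched by gene ID to GRCm38.p6 for position, and 27 symbols that had turned into dates were restored.

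The 14 WT T-ALL were ranked by the mean of Cd8a and Cd8b1, which were then left out of the test. Genes with a scaled RPKM of 1 or more in at least 3 of 14 libraries were fitted with limma 3.58.1 in R 4.3.3 (eBayes with trend and robust), on the 2 groups and on the score, and the fits were tested on simulated data. Correlations used 100000 permutations, two-sided. The named genes are those with the largest called changes, or, where fewer than 5 passed in a direction, the 5 with the smallest p and a scaled RPKM of at least 5, together with list members, neighbors of Cd8a and the genes most like the score. Smpd2, Ostm1, Snx3 and Galnt9 were named after their values were seen. The members and the gene lists were chosen with earlier results of these data known. The values of a few list members and of 1 gene like the score are not reported here.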

Additional observations from a re-analysis of the deposited data

Results flagged for a closer look

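In 18 cases of 154 (11.7%), the highest or lowest library of a group lay further from the rest than Dixon's 95% limit for 7 values, where chance flags about 1 in 20. Library 7 gave 6 of them in Cd8-high: it was low in Rag2 (1.63, others 4.90 to 5.98) and Heyl (2.20, others 3.92 to 5.03), high in Zbtb7b (2.54, others 0.69 to 1.48), Sox13 (4.58, others 1.43 to 2.75) and Smpd2 (3.79, others 3.33 to 3.53), and had 44.47% mitochondrial signal (others 9.99% to 18.92%). Library 14 was high in Ptcd3 (6.06) and Zmat5 (4.87) and low in Pik3r3 (1.49) and in likeness to the thymus (0.85, others 0.89 to 0.90). Library 48 was high in Ikzf2 (6.28), Ms4a6b (5.96) and Gzmb (1.72). Library 128 was high in Plekha7 (2.79) and Iqgap3 (3.34). In Cd8-low, library 110 was high in Itgb7 (5.02) and library 5 in Cd2 (7.48) and Snx3 (6.89).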

How the results depend on the processing

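No paired analysis was possible because both groups lie within 1 labelled group and share no replicate numbers. Between the groups 0 genes were called, and 0 with each of an offset of 0.1, no filter, a filter at 5, quantile normalization, 6 against 6, no trend or robust, and the erythroid, pan-T, neutrophil and library-set terms. Ranking by Cd8a or Cd8b1 alone gave the same groups, so between the groups it repeats the main fit. Leaving out 1 library gave 0 to 3 calls: 3 without library 128 (Mcoln3, Mettl6, Plekha7), 2 without library 5 (Mcoln3, Galnt9) and 1 without library 14 (Pik3r3), 36 (Fbln2) or 48 (Mcoln3). Along the score 1 gene was called, and leaving out 1 library gave 0 to 2, with 2 without library 120 (Edaradd, Nsg2) and 0 without 108, 110, 111, 14, 3, 36, 4, 48 or 7. The count was also 0 with no filter, with Cd8a alone, with Cd8b1 alone, with the pan-T covariate, with the neutrophil covariate, with the 10 libraries outside the set of 3, 4, 5 and 7 alone, and without the 2 lowest libraries, and the cause was not tested. The Edaradd slope stayed between 0.52 and 0.78 in all of these. The last 3 settings and the library-set term were chosen after seeing the data.

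Counts at an unadjusted p under 0.05 moved by over 1.5 times in a few settings. Between the groups, 1180 became 2105 with the 10 libraries alone. Along the score, 846 became 1430 without a filter, 543 with a filter at 5, 1515 with the 10 libraries alone, 468 without library 110, 429 with the neutrophil covariate and 384 without the 2 lowest libraries. By direction, the 772 higher genes became 467 with 6 against 6, 1195 without library 7 and 1496 with the 10 libraries. The 337 rising slopes became 538 without library 7, 220 without library 110, 216 with the neutrophil covariate and 212 without the 2 lowest libraries. The 509 falling slopes became 1027 without a filter, 268 with a filter at 5, 868 without library 3, 248 without library 110, 213 with the neutrophil covariate, 1016 with the 10 libraries and 172 without the 2 lowest. Directions reversed for Heyl without the 2 lowest libraries (difference -0.24, slope -0.44) and for the slope of Itgb7 among the 10 libraries (-0.23). Without counts, low genes cannot be given a counting error, and 7 libraries a group left a median SE of 0.21 log2.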

Other observations

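Of all genes tested, 0.131% were higher in every Cd8-high library and 0.0349% lower. Of these 19 genes whose groups did not overlap, 4 lie within a span of 1.22 Mb on chromosome 10. They were picked out after their values were seen, and whether such genes lie together by position was not tested. Sesn1 (difference 0.60, SE 0.13), Smpd2 (0.60, SE 0.14) and Ostm1 (0.60, SE 0.16) were higher in every Cd8-high library, and Snx3 (-0.36, SE 0.13) was lower. The median difference over the 540 tested genes of chromosome 10 was -0.03.

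Chromosome 15 divided the leukemias in a way that did not follow Cd8. The median of its 457 tested genes, relative to each gene's mean, was -0.35 in library 48, -0.37 in library 36 and -0.34 in library 5, and between -0.02 and 0.18 in the other 11. The 6 thymus libraries stood at -0.36 to -0.27. Libraries 36, 48 and 5 also had the highest Il2ra of the 14, at 8.23, 7.75 and 6.81. No test was made.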
